A study of Mus musculus with 6 samples.

Results

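The MYC, MAX and MXD network was examined in nuclear RNA of mouse neural precursor cells. Its 8 genes, Myc, Mycn, Max, Mxd3, Mxd4, Mxi1, Mnt and Mga, were taken by gene symbol, and all 8 were present among the 23337 gene rows and had enough counts to be tested with 13925 genes in all. The cells were cortical precursors of E13.5 mouse embryos, kept in medium with the growth factors EGF and FGF2 (20 ng/ml of either), and were taken at passage 6 to 7 when about 80% confluent. There were 6 libraries, 3 from lines labelled Fmr1 WT (lines 3, 8 and 19) and 3 from lines labelled Fmr1 KO (lines 3, 13 and 16). Fmr1 encodes FMRP, an RNA-binding protein whose loss causes fragile X syndrome. The design text calls the lines of a genotype independent, and the labels name neither the knockout allele nor the embryos the lines came from.

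MYC and MYCN are transcription factors that bind DNA only as a dimer with MAX and that raise transcription of genes for ribosome production, metabolism and the cell cycle. MXD3, MXD4, MXI1 and MNT compete for the same partner, and their dimers with MAX recruit the SIN3 corepressor to the same sites. MGA is a large MAX-binding protein that serves as scaffold of a Polycomb complex, PRC1.6. In the embryonic forebrain Mycn is known for its role in expanding precursors, and Mxd3 differs from the other MXD genes in being expressed in dividing cells, while Mxd4 and Mxi1 are better known from cells that leave the cycle.

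The site shared by these dimers is the E-box CACGTG, which reads the same on both strands. It was searched in the RefSeq promoter windows (GRCm38.p6, 250 bases before to 50 bases after each annotated start), where 7 of the 8 genes had a window and Myc was not matched. Windows of Mxd4, Mnt and Max held an E-box, beside 7.15% of all 32851 windows, and those of Mycn, Mxd3, Mxi1 and Mga held none. The stretches below are the 250 bases before the start for Mxd3 and Mxd4, shown because these genes differed between the genotypes in opposite directions, and the surroundings of the E-box in Mnt and Max. They run 5′ to 3′ on the strand of the gene, with the E-box in capitals.
Mxd3, chr13:55329732-55329981, minus strand: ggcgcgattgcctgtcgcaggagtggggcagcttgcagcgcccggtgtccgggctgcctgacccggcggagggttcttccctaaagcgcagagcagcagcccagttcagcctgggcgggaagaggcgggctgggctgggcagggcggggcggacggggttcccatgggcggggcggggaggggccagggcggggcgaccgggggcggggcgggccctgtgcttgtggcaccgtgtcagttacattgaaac
Mxd4, chr5:34187711-34187960, minus strand: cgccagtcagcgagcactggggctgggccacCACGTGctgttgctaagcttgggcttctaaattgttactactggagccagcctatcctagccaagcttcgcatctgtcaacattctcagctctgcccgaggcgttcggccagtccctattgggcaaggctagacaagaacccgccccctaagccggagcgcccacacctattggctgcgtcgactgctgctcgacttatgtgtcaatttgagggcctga
Mnt, chr11:74830774-74830834, plus strand: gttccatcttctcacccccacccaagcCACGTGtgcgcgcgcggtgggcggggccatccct
Max, chr12:76962243-76962298, minus strand: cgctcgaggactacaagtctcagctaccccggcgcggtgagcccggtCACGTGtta
The E-box began 219 bases before the RefSeq start in Mxd4, 123 bases before it in Mnt and 3 bases before it in Max, where it crosses that start. GENCODE, used for the gene positions below, places other starts. That of Max (76962201) leaves the whole E-box upstream, and those of Mxd3 (55329823) and Mxd4 (34187720) fall within the printed stretches. A match describes the letters only, and no binding was measured.

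Total counts ran from 18702738 to 26789522 per library. The targeted gene went against a label: Fmr1 was at 223, 270 and 274 CPM (counts scaled to a common library size) in WT lines 3, 8 and 19, at 188 and 153 CPM in KO lines 13 and 16, and at 371 CPM in the library labelled KO line 3. Its log2 fold change was -0.10 (SE 0.29, adjusted p = 0.795), and -0.58 without KO line 3 (adjusted p = 0.00152). KO lines 13 and 16 also kept Fmr1 RNA, and the allele is not named, so this level alone does not settle the genotype of any library. Directions given here therefore follow the labels. For the 8 genes, their 5 relatives and the 6 related lists, values without KO line 3 are added where calls differ. The cell type markers were counted with all 6 libraries only. WT line 19 also stood apart, with 18477 CPM of Rn45s, the precursor of ribosomal RNA, where the other 5 libraries had 1033 to 2597 CPM, and Xist was above 1000 CPM in WT lines 3 and 8 and KO line 3 only. The precursor markers Nes (1786 to 2869 CPM) and Sox2 (98.1 to 146 CPM) were present in every library. Of 6 microglial markers, Tmem119 was at 0 in all libraries and the other 5 had at most 19 counts in any of them, with a summed level of 0.512 to 1.08 CPM in WT and 0.558 to 1.34 CPM in KO.

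Of the 8 network genes, 2 were higher and 1 was lower in the libraries labelled KO: Myc and Mxd3 rose and Mxd4 fell, while Mycn, Max, Mxi1, Mnt and Mga did not pass the test. This stands beside 42.3% of all 13925 tested genes called in either direction, 21.8% higher and 20.4% lower (edgeR quasi-likelihood test, adjusted p under 0.05 after Benjamini-Hochberg adjustment over all genes). The share of the network that was called is thus near that of all genes, and what follows describes which of its genes moved. KO and WT values did not overlap for 5 of the 8, beside 54.3% of all tested genes. Myc, Mxd3 and Mnt were above the WT range in each KO library, as were 28.6% of all tested genes, and Mxd4 and Mxi1 were below it, as were 25.7%. The median log2 fold change was 0.06 for the 8 genes and 0.01 for all tested genes. In bulk RNA, fewer cells that express a gene and less RNA per cell cannot be told apart.

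**Figure D1:**
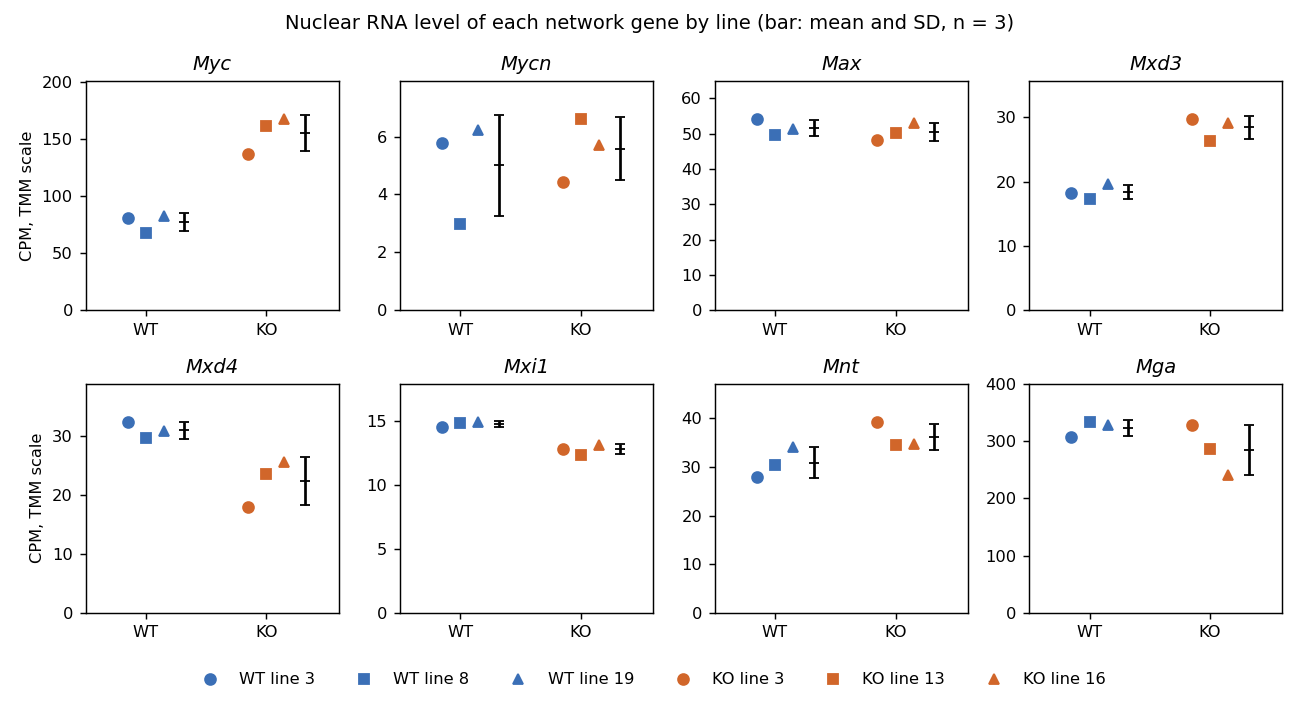
Level of each of the 8 genes in CPM on the TMM scale (vertical axis from 0) by genotype label, 1 point per library, with the mean and SD of 3 libraries as a bar. The 3 KO points of Myc (137 to 168 CPM) and of Mxd3 (26.4 to 29.7 CPM) lie above every WT point, those of Mxd4 lie below, and those of Max and Mycn overlap with WT.

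Myc (ENSMUSG00000022346.15, chromosome 15, 61985391 to 61990374, plus strand, GRCm38) was measured at 80.7, 68.0 and 82.3 CPM in WT lines 3, 8 and 19. In the libraries labelled KO it was at 137 CPM in line 3, 162 CPM in line 13 and 168 CPM in line 16. Every KO value thus lay above every WT value, and KO line 3 was the lowest of its group. The means were 155 ± 16 and 77.0 ± 7.82 CPM (SD, n = 3 each), a log2 fold change of 1.01 (SE 0.12, 95% interval 0.74 to 1.29, adjusted p = 3.35e-04). The call was kept in all 16 alternatives, with log2 fold changes from 0.93 to 1.14. A looser threshold of 0.10 is among them and could not remove a call. No exon of another annotated gene overlapped those of Myc.

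Mycn (ENSMUSG00000037169.15, chromosome 12, 12936093 to 12941914, minus strand), the paralog that drives forebrain precursor growth in the embryo, was scarce in these cultures. It was at 5.78, 2.99 and 6.24 CPM in WT lines 3, 8 and 19 and at 4.44, 6.60 and 5.71 CPM in KO lines 3, 13 and 16, so that the genotypes overlapped. WT line 8, with 59 counts, was the lowest library. Mycn missed the threshold, with a log2 fold change of 0.16 (SE 0.28, adjusted p = 0.673) and a 95% interval of -0.47 to 0.79 that spans both signs. Between lines of a genotype Mycn varied more than the other 7 genes, with a coefficient of variation of 35.1% in WT and 19.5% in KO.

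The remaining family member, Mycl (listed under its older symbol Mycl1, chromosome 4, 122995652 to 123002485), is not among the 8 genes but was written down with the relatives of the network. It was at 6.55, 4.81 and 5.04 CPM in WT lines 3, 8 and 19 and at 12, 16.2 and 19 CPM in KO lines 3, 13 and 16. Mycl rose in the libraries labelled KO, where the fitted log2 fold change was 1.52 (SE 0.21, adjusted p = 6.04e-04). Myc made up nearly the same share of the summed Myc, Mycn and Mycl level per length in both groups, 90.9% ± 1.26 in WT and 91.2% ± 0.852 in KO (SD, n = 3 each).

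Max (ENSMUSG00000059436.13, chromosome 12, 76937269 to 76962201, minus strand), the shared partner, had overlapping values in the genotypes: 54.1, 49.7 and 51.2 CPM in WT lines 3, 8 and 19 and 48.2, 50.2 and 53.0 CPM in KO lines 3, 13 and 16. Its log2 fold change was -0.03 (SE 0.10, adjusted p = 0.818), with a 95% interval of -0.26 to 0.19. This interval does not reach the change measured for Myc. The ratio of Myc to Max per length was 1.98, 1.81 and 2.13 in WT lines 3, 8 and 19 and 3.77, 4.26 and 4.18 in KO lines 3, 13 and 16. It does not depend on the scaling of the libraries, and its groups did not overlap.

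Among the MAX-binding repressors, Mxd3 (ENSMUSG00000021485.14, chromosome 13, 55325168 to 55329823, minus strand) was at 18.3, 17.3 and 19.6 CPM in WT lines 3, 8 and 19. It was at 29.7, 26.4 and 29.2 CPM in KO lines 3, 13 and 16, each above every WT value. Mxd3 rose, with a log2 fold change of 0.63 (SE 0.11, 95% interval 0.37 to 0.89, adjusted p = 0.00246), and the call was kept in all 16 alternatives (0.58 to 0.68), the looser threshold included. Its exons share 105 bases with Prelid1, a mitochondrial lipid transfer gene on the opposite strand, and whether the counts are stranded is not given in the sources used here. Prelid1 was itself higher in the libraries labelled KO (log2 fold change 0.63, SE 0.17, adjusted p = 0.0154), at 54.0, 62.3 and 86.5 CPM in KO lines 3, 13 and 16 against 41.1 to 45.5 CPM in WT. The part of shared reads in the Mxd3 value was not tested.

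Mxd4 (ENSMUSG00000037235.13, chromosome 5, 34173883 to 34187720, minus strand) was at 32.4, 29.6 and 30.9 CPM in WT lines 3, 8 and 19. It was at 17.9, 23.6 and 25.7 CPM in KO lines 3, 13 and 16, with KO line 3 the lowest library and no overlap between the groups. Mxd4 fell by 0.47 on the log2 scale (SE 0.14, 95% interval -0.80 to -0.14, adjusted p = 0.0288). The call was lost without WT line 3 (adjusted p = 0.108), WT line 8 (0.0616), WT line 19 (0.0688) or KO line 13 (0.0611), while the fold change stayed negative in every fit, from -0.57 to -0.33. Its exons share 514 bases with those of Gm42846, an antisense transcript, and the part of shared reads was not tested.

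Mxi1 (ENSMUSG00000025025.14, chromosome 19, 53310518 to 53375810, plus strand) was at 14.5, 14.8 and 14.9 CPM in WT lines 3, 8 and 19 and at 12.8, 12.3 and 13.1 CPM in KO lines 3, 13 and 16. The groups did not overlap, but Mxi1 missed the threshold (log2 fold change -0.21, SE 0.11, 95% interval -0.47 to 0.05, adjusted p = 0.177). Mxd1, the remaining MXD gene and a relative outside the 8, was at 24.4, 25.6 and 25.2 CPM in WT lines 3, 8 and 19 and at 19.5, 18.8 and 16.9 CPM in KO lines 3, 13 and 16. Mxd1 fell by 0.45 on the log2 scale (SE 0.11, adjusted p = 0.0115). The summed counts of Mxd1, Mxd3, Mxd4 and Mxi1 were at 87.4 to 90.6 CPM in WT and 79.9 to 84.9 CPM in KO, while the share of Mxd3 in that sum was 20.6% ± 0.938 in WT and 34.7% ± 2.34 in KO (SD, n = 3 each). Neither the sum nor the share overlapped between the groups.

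Mnt (ENSMUSG00000000282.12, chromosome 11, 74830920 to 74845725, plus strand), a broadly expressed repressor that opposes MYC, was at 27.8, 30.5 and 34.2 CPM in WT lines 3, 8 and 19. It was at 39.3, 34.5 and 34.6 CPM in KO lines 3, 13 and 16. KO lines 13 and 16 lay just above the highest WT line, and KO line 3 lay further above it. Mnt missed the threshold (log2 fold change 0.23, SE 0.12, 95% interval -0.04 to 0.50, adjusted p = 0.151). It also missed it without KO line 3 (log2 fold change 0.17, adjusted p = 0.238).

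Mga (ENSMUSG00000033943.15, chromosome 2, 119897228 to 119969581, plus strand) had more counts than any other of the 8 genes, 5613 to 8382 per library, from merged exons of 15340 bases. It was at 307, 334 and 329 CPM in WT lines 3, 8 and 19 and at 328, 286 and 241 CPM in KO lines 3, 13 and 16. KO line 3 lay within the WT range, and KO lines 13 and 16 lay below it. With all 6 libraries Mga did not pass the test (log2 fold change -0.18, SE 0.13, adjusted p = 0.28). Without KO line 3, the library with Fmr1 above the WT range, Mga was called lower (log2 fold change -0.29, adjusted p = 0.0312). It was also called when WT line 19 was left out besides KO line 3 (-0.28, adjusted p = 0.0439). The former fit called 53.7% of all genes (25.8% higher and 27.8% lower) and 4 of the 8, and the latter 54.2% (25.9% and 28.3%) and 4 of the 8.

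**Figure D2:**
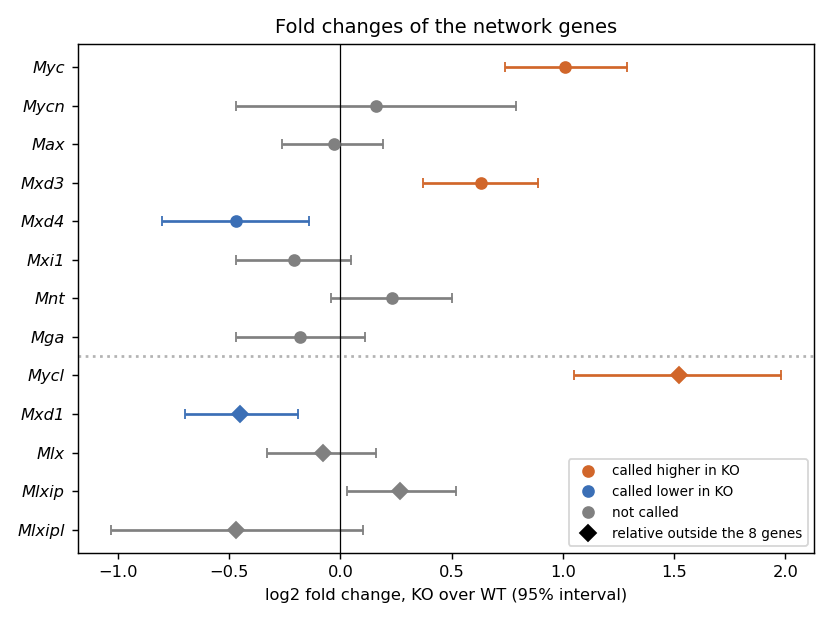
Log2 fold change, KO over WT (horizontal axis), with its 95% interval for the 8 genes (circles) and 5 relatives (diamonds), coloured by the call of the edgeR test. Intervals of Myc, Mxd3 and Mycl lie above 0 and those of Mxd4 and Mxd1 below, while that of Max is the narrowest around 0 at -0.26 to 0.19.

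The parallel MLX branch, whose dimers sense glucose and bind related E-boxes, was described with the same fit. Mlx, its shared partner, had a log2 fold change of -0.08 (SE 0.11), and its exons share 385 bases with Psmc3ip. Mlxip, which encodes MondoA, was at 62.8 to 71.0 CPM in WT and 75.5 to 87.3 CPM in KO, with a log2 fold change of 0.27 (SE 0.11, adjusted p = 0.0678). It passed without KO line 3 (0.33, adjusted p = 0.0124). Mlxipl, which encodes ChREBP, was near 1 CPM in each library (0.987 to 1.63 CPM) and did not pass the test (log2 fold change -0.47, adjusted p = 0.161). Of the 5 relatives, Mycl rose, Mxd1 fell and 3 did not pass, which is 20.0% in either direction, near the 21.8% and 20.4% of all tested genes.

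Levels of different genes were compared per kilobase of merged exons. In WT the order was Myc (28.4 ± 2.88 CPM per kilobase), Mga (21.1 ± 0.941), Max (14.4 ± 0.627), Mxd3 (7.76 ± 0.486), Mnt (6.66 ± 0.687), Mxd4 (3.65 ± 0.166), Mxi1 (2.16 ± 0.0337) and Mycn (1.52 ± 0.533; SD, n = 3). Neighbours in this order did not overlap over the WT lines, except Mxd3 with Mnt. In the libraries labelled KO the order of the means per merged exon length was the same, Mxi1 (1.87 ± 0.0578) and Mycn (1.69 ± 0.330) overlapped, and Mxd3 (12 ± 0.754) and Mnt (7.81 ± 0.590) did not. Myc, at 57.2 ± 5.89 CPM per kilobase, moved from above 87.5% of the 12557 tested genes with a length in WT to above 95.8% of them in KO. Lengths decide part of this order: over GENCODE basic transcripts, Max (26.4 ± 1.15) stood above Mga (23.2 ± 1.04) in WT, and Mxd4 (7.98 ± 0.362) above Mnt (6.72 ± 0.692). With those lengths the KO order differed from the WT order: Mxd3 (21.4 ± 1.35) stood above Mga (20.4 ± 3.12), Mnt (7.87 ± 0.595) above Mxd4 (5.77 ± 1.04) and Mycn (1.99 ± 0.387) above Mxi1 (1.92 ± 0.0593). Myc was the highest of the 8 in both genotypes under both sets of lengths.

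**Figure D3:**
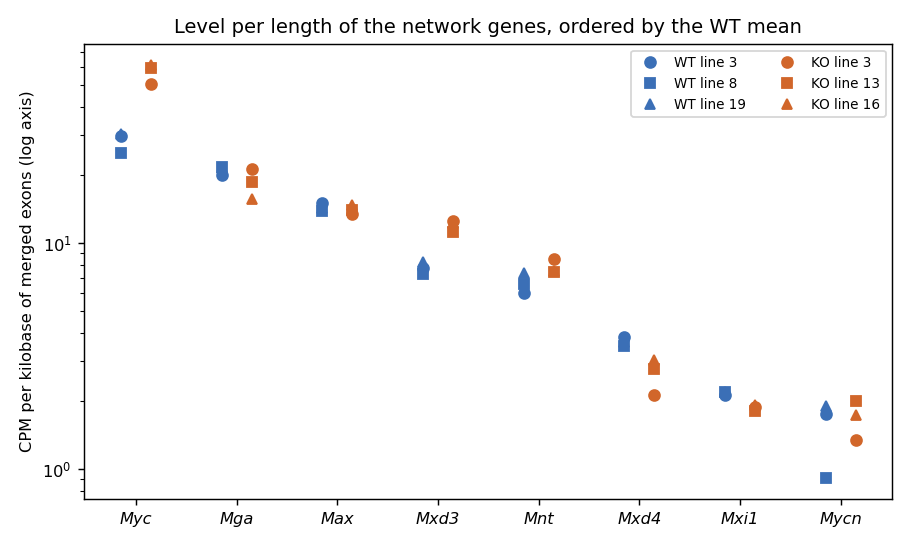
Level of each of the 8 genes in CPM per kilobase of merged exons (logarithmic vertical axis), ordered by the WT mean, 1 point per library. Myc is highest in all 6 libraries, at 25 to 30.3 in WT and 50.6 to 61.7 in KO, and Mycn is at 0.907 to 2.0.

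The balance of MAX partners was summarised within each library as the log2 ratio of the summed level per length of Mxd3, Mxd4, Mxi1, Mnt and Mga to that of Myc and Mycn. It was 0.33, 0.67 and 0.41 in WT lines 3, 8 and 19 and -0.16, -0.56 and -0.65 in KO lines 3, 13 and 16. The repressor and MGA sum thus exceeded the MYC sum in every WT library and was below it in every library labelled KO, given as a description since the genes were chosen with earlier results of these data known. The means differed by -0.93. The MYC sum was 29.9 ± 3.41 CPM per kilobase in WT and 58.9 ± 6.16 in KO, while the sum of the other 5 genes was 41.3 ± 1.61 and 42.9 ± 3.11 (SD, n = 3 each). Mga alone was at 21.1 ± 0.941 in WT and 18.6 ± 2.83 in KO. Without Mga the repressor sum is below the MYC sum in every WT library too, so the change of sign rests on counting Mga. Mycl and Mxd1 are not in these sums. With lengths of basic transcripts the ratio in KO line 3 was 0.08, so the sign in that library depends on the lengths, whereas the difference between groups was -0.89. The ratio of Mxd3 to Mxd4 counts was 0.564, 0.583 and 0.633 in WT lines 3, 8 and 19 and 1.66, 1.12 and 1.14 in KO lines 3, 13 and 16.

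**Figure D4:**
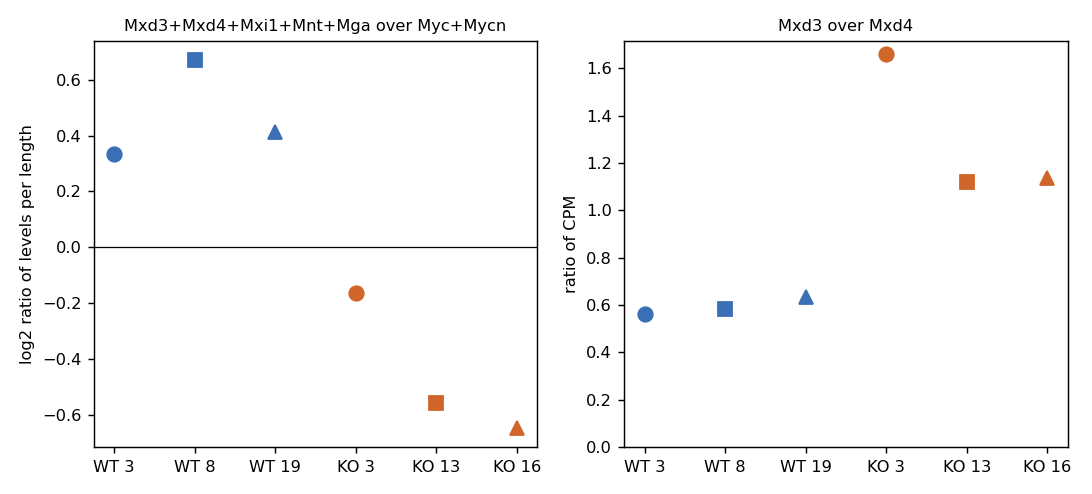
Ratios within each library: left, the log2 ratio of the summed level per length of Mxd3, Mxd4, Mxi1, Mnt and Mga to that of Myc and Mycn, with a line at 0; right, the ratio of Mxd3 to Mxd4 CPM on an axis from 0. The left ratio is 0.33 to 0.67 in WT and -0.65 to -0.16 in KO, and the right ratio is 0.564 to 0.633 in WT and 1.12 to 1.66 in KO.

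The genes whose log2 CPM followed Myc most closely over the 6 libraries were Slc29a4, a monoamine and nucleoside transporter, and Rnpepl1, an aminopeptidase-like gene (Pearson's r = 0.9996 for both), and Nnat, an imprinted gene of developing brain (r = 0.9994). Nnat was at 108, 83.4 and 112 CPM in WT lines 3, 8 and 19 and at 315, 428 and 464 CPM in KO lines 3, 13 and 16, the same order of libraries as for Myc. Of 11804 genes compared, 385 had r of at least 0.98 with Myc, a measure that any gene with a like difference between the 2 genotype groups scores high on. For Mycn only 3 genes reached that value: Mir3060 (r = 0.9887), Gpr179 (0.9883) and Fgfr2 (0.9854), the last encoding a receptor of the FGF2 in the medium. Fgfr2 was at 44.9, 26.9 and 44.5 CPM in WT lines 3, 8 and 19 and at 35.1, 45.2 and 40.1 CPM in KO lines 3, 13 and 16, lowest in WT line 8 like Mycn. These correlations share the libraries and their depth and describe the 6 libraries only. With 11804 genes compared over 6 libraries, values this high can arise without any link. How many genes would reach 0.98 by chance was not tested.

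Genes commonly listed as MYC targets, in ribosome production, nucleotide synthesis, metabolism and in part the cell cycle, were mostly higher in the libraries labelled KO. Among 56 of them, 34 rose, 1 fell and 21 missed the threshold, 60.7% higher beside 21.8% of all genes, with a median log2 fold change of 0.38 beside 0.01. Cad, which starts pyrimidine synthesis, was at 176, 192 and 212 CPM in WT lines 3, 8 and 19 and at 337, 352 and 421 CPM in KO lines 3, 13 and 16 (log2 fold change 0.94, SE 0.12, adjusted p = 5.45e-04). Hk2, a hexokinase, rose by 1.0 (SE 0.14), the nucleoside transporter gene Slc29a2 by 1.06 (SE 0.13), and Nop56, a core protein of box C/D snoRNPs, by 0.66 (SE 0.11), all as log2 fold changes. The gene that fell, Ndufaf4, an assembly factor of respiratory complex I, had a log2 fold change of -0.76 (SE 0.21, adjusted p = 0.0162); it is named with its value already known. Its call was lost without KO line 13 (log2 fold change -0.65, adjusted p = 0.0637). Without WT line 3 the number that rose was 21, and without WT line 19 it was 22, where 14.2% and 17.0% of all genes were called higher. Without KO line 3 it was 39, beside 25.8% of all genes. An E-box lay in the window of 14 of the 50 target genes with one (28.0%), beside 8.09% of 27025 genes, in 6 of 28 that rose and 8 of 22 others.

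Proliferation genes moved with this list. Among 25 of them, 14 rose, 1 fell and 10 missed the threshold, with a median log2 fold change of 0.45. These are 56.0% higher and 4.0% lower, beside 21.8% and 20.4% of all tested genes in the fit of all 6 libraries. Rrm2, a ribonucleotide reductase subunit, Mcm7, a subunit of the replicative helicase, Aurkb, a mitotic kinase, and Foxm1, a transcription factor of G2/M genes, rose by 0.90, 0.87, 0.80 and 0.72 on the log2 scale. The gene that fell, Ccnd1, encoding cyclin D1, had a log2 fold change of -0.37 (adjusted p = 0.0447), and it too was chosen with its value known. That call was lost without WT line 3 (adjusted p = 0.112), WT line 8 (0.154), WT line 19 (0.0713), KO line 13 (0.138) or KO line 16 (0.0503), and kept without KO line 3 (0.049). Without KO line 3, 14 of the list were called higher and 2 lower, beside 25.8% and 27.8% of all genes. The target and proliferation lists share no gene, but they are not separate in kind, since both hold MCM genes. Mcm4 and Mcm5 were placed with the targets, and Mcm2, Mcm3, Mcm6 and Mcm7 with proliferation. Cdk4, a cell cycle kinase gene, was also placed with the targets. Mcm4, Mcm5 and Cdk4 rose by 0.53, 0.65 and 0.70 on the log2 scale. The part of dividing cells in the levels of Myc and Mxd3 was not tested.

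**Figure D5:**
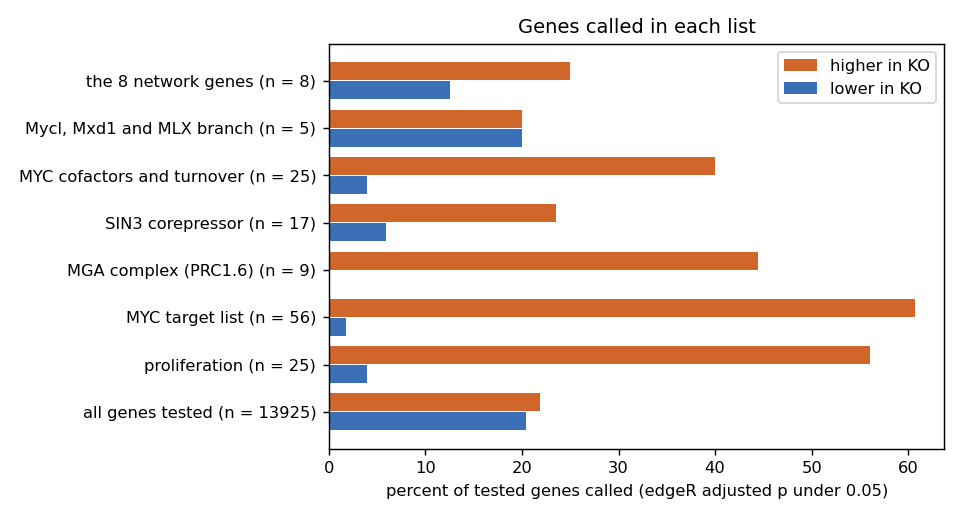
Percent of tested genes called higher (orange) or lower (blue) in the libraries labelled KO for the 8 genes, 6 lists of related genes and all 13925 genes tested, on an axis from 0. MYC targets (60.7%) and proliferation genes (56.0%) have the highest shares called higher, beside 21.8% of all genes.

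Cofactors of MYC and proteins that control its turnover rose in 10 of 25 genes and fell in 1, with a median log2 fold change of 0.29. These are 40.0% higher and 4.0% lower, beside 21.8% and 20.4% of all tested genes. Hcfc1, a chromatin cofactor that binds MYC, was at 267, 288 and 311 CPM in WT lines 3, 8 and 19 and at 511, 531 and 537 CPM in KO lines 3, 13 and 16 (log2 fold change 0.87, SE 0.10). The elongation kinase gene Cdk9 rose by 0.68 (SE 0.11) and Actl6a, a subunit of chromatin remodelling complexes, by 0.71 (SE 0.11), again on the log2 scale. Fbxo32, an F-box protein of ubiquitin ligases, was the gene that fell, from 52.3 ± 3.58 to 13 ± 2.81 CPM (SD, n = 3 each; log2 fold change -2.0, SE 0.16, adjusted p = 5.3e-05). Without WT line 3 the number that rose was 6, and without KO line 3 it was 14, where 14.2% and 25.8% of all genes were called higher.

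In the SIN3 corepressor list, through which MXD proteins and MNT act, 4 of 17 genes rose and 1 fell, with a median log2 fold change of 0.27. The shares of 23.5% higher and 5.88% lower stand beside 21.8% and 20.4% of all tested genes, so the share that rose is near that of all genes. Sin3b, a scaffold of the complex, fell by 0.64 on the log2 scale (SE 0.09, adjusted p = 8.20e-04), from 234, 244 and 239 CPM in WT lines 3, 8 and 19 to 149, 155 and 157 CPM in KO lines 3, 13 and 16. Its paralog Sin3a had a log2 fold change of 0.28 (SE 0.11) that missed the threshold (adjusted p = 0.0661), and it is given with its value known beforehand. Ncor1, a nuclear receptor corepressor, and the complex subunits Sap130 and Suds3 rose by 0.53, 0.43 and 0.40 on the log2 scale. Without WT line 3 the number that rose was 1, and without KO line 13 it was 2, where 14.2% and 16.1% of all genes were called higher. Without KO line 3, 5 genes of the list were called higher and 2 lower, beside 25.8% and 27.8% of all genes.

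Of 9 partners of MGA in PRC1.6, 4 rose and 0 fell, with a median log2 fold change of 0.28, beside 21.8% of all tested genes higher and 20.4% lower. They were Tfdp1, the dimer partner of E2F factors, Ring1, a ubiquitin ligase, E2f6, a repressive E2F, and L3mbtl2, a chromatin reader, at log2 fold changes of 0.69, 0.45, 0.39 and 0.36. Tfdp1 was at 158, 133 and 150 CPM in WT lines 3, 8 and 19 and at 242, 237 and 232 CPM in KO lines 3, 13 and 16. The number that rose was 2 without WT line 8 and 2 without WT line 19, where 15.5% and 17.0% of all genes were called higher. The number that fell was 1 without KO line 3 and 2 when WT line 19 was left out as well, where 27.8% and 28.3% of all genes were called lower.

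Markers of other cell types were counted only in the fit of all 6 libraries, beside 21.8% of all tested genes higher and 20.4% lower. Of the astrocyte markers 3 of 6 fell, with a summed level of 233 to 467 CPM in WT and 146 to 228 CPM in KO. Oligodendrocyte lineage markers rose in 3 of 5 tested, with a sum of 647 to 732 CPM in WT and 1068 to 1266 CPM in KO, the myelin gene Mbp being at 0 in all WT libraries. Neuronal markers rose in 2 of 5 tested, with a sum of 14.2 to 21.3 CPM in WT and 31.6 to 55.3 CPM in KO. Endothelial markers rose in 1 and fell in 1 of 3 tested (6.13 to 6.89 CPM in WT and 6.68 to 10.3 CPM in KO). Neural precursor markers rose in 0 and fell in 2 of 12, or 16.7%, which is no more than among all genes (8088 to 9104 CPM in WT and 6059 to 7447 CPM in KO). The part of these differences in the levels of Myc, Mxd3 and Mxd4 was not tested.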

How the data were processed

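For each of the 6 samples the authors deposited whole-number counts by gene symbol, not normalized. The submitters' processing notes name STAR, DESeq2, HTSeq 0.7.2, cutadapt 1.14 and the mm10 build. Roles of the tools, annotation and strand setting: not given in the sources used here. RNA came from nuclei isolated with a kit, per the labels. Genotype was tested in edgeR 4.0.16 under R 4.3.3 (filterByExpr, TMM scaling, robust quasi-likelihood fit of genotype over 6 samples, two-sided, Benjamini-Hochberg adjustment, threshold 0.05). SEs were derived from the F statistic. P-values measure the spread between lines. No pair of lines within a genotype matched within sampling noise (chi-square per degree of freedom 10.8 or more). 1 count was worth 0.0373 to 0.0535 CPM. Gene models came from GENCODE mouse release 21 (GRCm38), promoter windows from RefSeq. A planned comparison of protein sequences was not made. The 8 genes and the 6 related lists were chosen with earlier results of these data known. Besides the 8 genes and Fmr1, all 5 relatives, up to 4 genes per list by smallest p-value and the 3 genes most correlated with Myc and with Mycn (mean of at least 1 CPM, log2 CPM with a prior count of 2, unnamed genes left out) are named. Other scalings, filters, tools (limma-voom 3.58.1, DESeq2 1.42.0), a threshold of 0.10, an Xist covariate and left-out libraries were tried. The fit was tested on simulated data in which 200 of 13925 genes were changed. It recovered 23.9% of 1.5-fold, 79.1% of 2-fold and 93.9% of 4-fold changes, and 7.09% of 141 calls were false. Missing the threshold therefore does not show that a gene is unchanged.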

Additional observations from a re-analysis of the deposited data

How the results depend on the processing

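In all 16 alternatives Myc and Mxd3 kept their calls and 2 of the 8 genes were called higher. The 0.10 threshold among them reuses the main fit, so no call could be lost there. Leaving out each replicate in turn, the number called lower ran from 0 to 2 (1 with all libraries), and Mxd4, called with all libraries, had log2 fold changes from -0.57 to -0.33. Mga ran from -0.29 to -0.07, Mycn from -0.10 to 0.33 and Max from -0.06 to 0.00, so Mycn changed sign without WT line 8 and Max without KO line 3, both far from the threshold. With Xist state as covariate Mycn had -0.01 (adjusted p = 0.974). Fmr1 ran from -0.58 to 0.14 and changed sign without KO line 13 (0.04) and without KO line 16. Without WT line 19 and KO line 3 together, 2 of the 8 genes were called lower (Mga at -0.28), 2 relatives higher, and 2 PRC1.6 and 3 proliferation genes lower. That fit called 25.9% of all genes higher and 28.3% lower. Left-out replicates gave these ranges of numbers called, in fits that called 14.2% to 25.8% of all genes higher and 15.1% to 27.8% lower. For higher: relatives 1 to 2, cofactors 6 to 14, SIN3 1 to 5, PRC1.6 2 to 4, targets 21 to 39. For lower: SIN3 1 to 2, PRC1.6 0 to 1, targets 0 to 1, proliferation 0 to 2. At the 0.10 threshold 2 relatives and 8 SIN3 genes were higher and 2 SIN3 genes lower. The share of all genes called at that threshold was not counted. With the Xist covariate 7 SIN3 genes were higher and 2 proliferation genes lower, where 23.0% of all genes were higher and 21.7% lower. The single proliferation gene called lower became 0 with DESeq2 size factors, upper-quartile factors, no filter and the 1 CPM filter. Those fits called 15.2% to 21.1% of all genes lower. The causes were not tested. No paired analysis was possible because the genotypes share only 1 line number. The basic transcript lengths, and leaving out lines for the ratio of repressor to MYC level, were chosen after seeing the data; that ratio's difference ran from -1.10 to -0.83. Counts were low for Mlxipl (23 to 44 per library) and Mycn (59 to 158). The 95% Poisson interval of Mycn, for counting error alone, was 2.28 to 3.86 CPM in WT line 8. It did not overlap those of WT line 3 (4.91 to 6.75) and WT line 19 (5.15 to 7.49). In KO lines 3, 13 and 16 the intervals were 3.53 to 5.50, 5.60 to 7.72 and 4.78 to 6.76 CPM, and only lines 3 and 13 did not overlap. How much of the spread of Mlxipl is counting error was not tested.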
